A study of Homo sapiens with 3 samples.

Results

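The genes described here are 10 direct targets of the hypoxia-inducible factors (HIF): NDRG1, ANGPTL4, MIR210HG, CA9, ADM, VEGFA, BNIP3, EGLN3, PDK1 and ANKRD37. They were found by symbol among the 59719 gene names of the deposited expression table, where a gene without a name counts under its identifier. Each of the 10 was found, with a mean level over 1 TPM (transcript abundance, reads divided by transcript length and scaled to a fixed sum per library). NDRG1, ANGPTL4 and MIR210HG were chosen by their measured rise in these same libraries, so their values are given as a description and support nothing. The question was whether the other 7 genes moved with them. PC3 is a human prostate cancer cell line that grows without androgen. It carried a control vector (shCON) or, in the pLKO.1 vector, 1 of the hairpins against USP16, a ubiquitin-specific protease (shUSP16#1 and shUSP16#2). According to the methods, stable transformants were selected with puromycin, and no hypoxic treatment is described. Each condition was measured by RNA-seq in 1 library, so no difference has a replicate check, no test was possible, and both comparisons share the shCON library.

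HIF is a pair of proteins, an oxygen-controlled alpha subunit encoded by HIF1A or EPAS1 and a stable partner encoded by ARNT. In the presence of oxygen, prolyl hydroxylases of the EGLN family mark the alpha subunit, the VHL ubiquitin ligase binds the mark and the protein is degraded. When oxygen falls, the pair accumulates and binds DNA at sites with the core ACGTG or GCGTG, and it raises genes for glucose use, vessel growth, acid export, mitochondrial turnover and its own hydroxylases. Because this control acts on protein, the mRNA of a HIF subunit is not a measure of HIF activity. Many solid tumours, prostate tumours among them, contain poorly oxygenated regions in which these targets are high.

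The core HIF motif was looked up in the 250 bases before the RefSeq start sites (GRCh38.p14) of the member genes, on both strands, because the core is the one sequence feature that direct HIF targets are known for. RefSeq windows were given for 8 of the 10 genes, in 9 entries, and none for NDRG1 and VEGFA. ACGTG or GCGTG was found in 7 of the 9 windows and ACGTG in 6, against 43.2% and 18.5% of all 35116 promoter windows of this length. Among 58 genes of a longer list of HIF targets, 70 of 97 windows (72.2%) held either form and 44 (45.4%) held ACGTG. A palindromic match, which reads the same on both strands, was counted at 2 positions. The lists hold known HIF targets and the other windows were not matched for GC content, so these shares are a description only. A match describes letters in a window and is not a measured binding site. The pieces below are printed from 5′ to 3′ on the strand of the gene with matches in capitals. They were picked to set 3 genes that were higher in both hairpin libraries (ANGPTL4, MIR210HG and CA9) beside 1 that hardly moved (ANKRD37) and 1 that was lower (EGLN3). ANGPTL4 is shown at chr19:8363905-8364150 (+), MIR210HG at chr11:568458-568707 (-), CA9 at chr9:35673898-35673927 (+), ANKRD37 at chr4:185396676-185396705 (+) and EGLN3 at chr14:33951082-33951324 (-).
ANGPTL4: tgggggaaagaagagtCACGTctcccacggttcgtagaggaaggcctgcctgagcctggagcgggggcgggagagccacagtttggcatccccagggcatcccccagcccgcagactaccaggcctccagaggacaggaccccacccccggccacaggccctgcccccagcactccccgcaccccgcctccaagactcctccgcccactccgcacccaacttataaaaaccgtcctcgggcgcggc
MIR210HG: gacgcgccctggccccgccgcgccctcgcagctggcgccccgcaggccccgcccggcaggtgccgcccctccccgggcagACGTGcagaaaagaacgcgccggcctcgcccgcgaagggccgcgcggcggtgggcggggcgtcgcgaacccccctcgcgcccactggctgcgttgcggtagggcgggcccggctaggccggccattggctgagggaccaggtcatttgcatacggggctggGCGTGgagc
CA9: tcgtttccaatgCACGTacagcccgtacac
ANKRD37: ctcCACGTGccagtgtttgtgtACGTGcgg
EGLN3: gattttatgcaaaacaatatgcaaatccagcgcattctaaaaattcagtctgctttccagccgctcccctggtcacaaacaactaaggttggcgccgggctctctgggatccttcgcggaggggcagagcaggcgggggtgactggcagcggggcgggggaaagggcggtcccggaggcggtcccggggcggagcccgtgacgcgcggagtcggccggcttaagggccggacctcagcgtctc
The match of ANGPTL4 begins 234 bases before its start, those of MIR210HG 170 and 9 bases before, and that of CA9 18 bases before. ANKRD37, which was level in all 3 libraries, holds 3 positions that begin 162, 161 and 143 bases before its start. The EGLN3 window holds no match. All starts meant here are RefSeq starts. The GENCODE positions given below for ANGPTL4, CA9, ANKRD37 and EGLN3 begin further upstream, so their printed pieces lie inside those genes. Windows with a match thus belonged to genes that were higher, level or lower (ADM and PDK1) under the hairpins, or that changed in opposite directions (BNIP3). PDK1 also has a window without a match.

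MIR210HG is a long non-coding gene whose locus also holds the hairpin of miR-210, a microRNA widely used as a marker of hypoxia. In GENCODE 29 the hairpin spans positions 568089 to 568198 of chromosome 11 and overlaps 0 exons of MIR210HG. The mature sequences are shown in lower case with the seed (bases 2 to 8) in capitals, since the seed is what pairs with target mRNAs.
hsa-miR-210-3p: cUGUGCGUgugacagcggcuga
hsa-miR-210-5p: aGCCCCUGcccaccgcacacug
The entry of MIR210 itself was listed at 0 in all 3 libraries. RNA-seq libraries of this kind do not capture mature microRNAs, so the level of miR-210 was not measured, and the values of MIR210HG below are those of the host transcript.

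The knockdown and the identity of the cells were checked first. USP16 was at 19.9 TPM in shCON, against 3.50 and 1.08 TPM under shUSP16#1 and shUSP16#2. The epithelial keratin KRT8 was between 622 and 748 TPM, EPCAM between 136 and 274 TPM, and KLK3, which PC3 cells are known to lack, was listed at 0 in all 3 libraries. Of the markers of other cell types, PTPRC stayed at or below 0.14 TPM and PECAM1 at or below 1.28 TPM, while the collagen gene COL1A1 was at 4.19, 10.7 and 4.78 TPM in shCON, shUSP16#1 and shUSP16#2. Between 12984 and 13763 genes reached 1 TPM per library. A change is the value of log2(TPM + 1) in a hairpin library minus its value in shCON, which makes the changes of weakly expressed genes look smaller than they are. A difference of at least 1 (2-fold on that scale) was counted as a call among the 13637 genes whose mean reached 1 TPM, here called tested genes. The median change of these genes was -0.17 under shUSP16#1 and -0.37 under shUSP16#2. The changes also followed the GC content of transcripts, with Spearman correlations across 13296 genes of 0.55 and 0.65. The median GC content was 56.0% for the 10 targets and 49.8% for all tested genes, and values after removal of this trend are given where they matter. The part of the GC trend in the results was not tested otherwise.

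Of the 10 HIF targets, 4 were at least 2-fold higher under both hairpins: the 3 that had been picked for it and CA9. EGLN3 was at least 2-fold lower under both. VEGFA and BNIP3 changed in opposite directions under the hairpins, and ADM, PDK1 and ANKRD37 were lower under both. Across all tested genes 1.14% were at least 2-fold higher under both hairpins and 4.6% at least 2-fold lower. Among the 7 genes not picked for their rise, the counts were 1 higher (CA9) and 1 lower (EGLN3), and their median changes were -0.47 under shUSP16#1 and -0.20 under shUSP16#2. The rise of NDRG1, ANGPTL4 and MIR210HG was shared by CA9 and not by the other 6, and with the GC trend removed CA9 was past the limit under shUSP16#2 only (0.73 and 1.99), which left 3 genes.

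**Figure D1:**
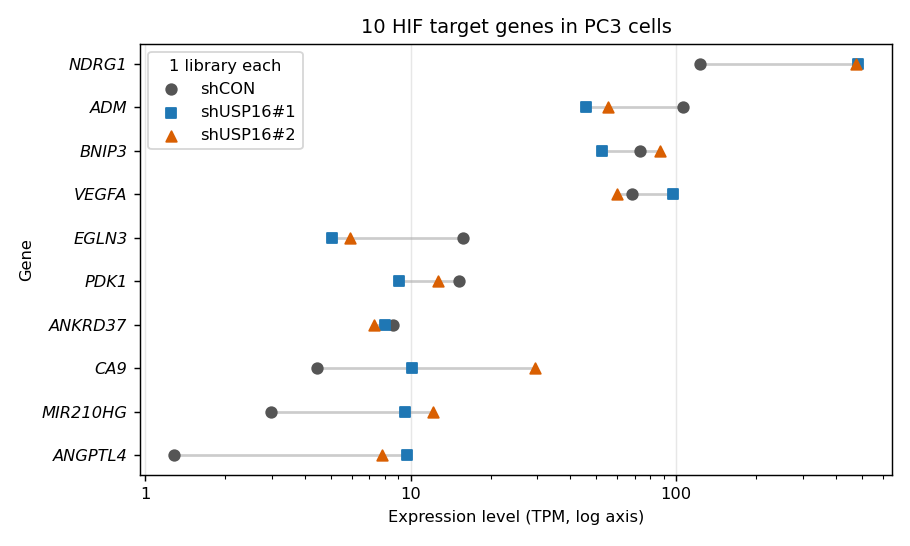
Expression level of the 10 HIF target genes in the 3 libraries, with TPM on a log axis, 1 row per gene ordered by the level in shCON, and 1 point per library joined by a grey line. NDRG1, CA9, MIR210HG and ANGPTL4 lie to the right of shCON under both hairpins, EGLN3, ADM, PDK1 and ANKRD37 lie to the left, and the shCON point of BNIP3 and of VEGFA falls between the hairpin points.

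NDRG1 (ENSG00000104419), a stress-induced cytoplasmic protein named for its repression by N-Myc, lies on the reverse strand of chromosome 8 from 133237171 to 133302022 (GRCh38, GENCODE 29). Its level was 123 TPM in shCON, against 485 and 475 TPM under shUSP16#1 and shUSP16#2. Both hairpin libraries lay well above the control and close to each other, with TPM ratios of 3.93 and 3.85 and log2 changes of 1.97 and 1.94. It was the most abundant of the 10 genes in every library. In shCON 8.59% of tested genes had a higher TPM, and in the hairpin libraries 2.12% and 2.19% did. Counted over all tested genes and with NDRG1 included, 95 had a mean change as high or higher. With the GC trend removed, the changes were 1.82 and 1.67.

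ANGPTL4 (ENSG00000167772; chromosome 19, 8363289 to 8374373, forward strand) encodes a secreted inhibitor of lipoprotein lipase. It was nearly silent in shCON at 1.29 TPM, and reached 9.68 TPM with shUSP16#1 and 7.80 TPM with shUSP16#2. The TPM ratios were 7.504 and 6.05, the log2 changes 2.22 and 1.94, and 87 tested genes, itself included, had a mean change as high or higher. In shCON 94.9% of tested genes were above it, and under the hairpins 51.8% and 52.2% were, so that it moved from the bottom of the expressed genes to their middle. The size of its change depended on the pseudocount more than that of any other of the 10 genes, with a mean of 2.08 at a pseudocount of 1 and 2.66 at 0.1. Removal of the GC trend left changes of 1.82 and 1.34, for a transcript with 63.5% GC.

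MIR210HG (ENSG00000247095; chromosome 11, 565660 to 568457, reverse strand) was at 2.98 TPM in shCON, against 9.55 and 12.1 TPM under shUSP16#1 and shUSP16#2. Both hairpin libraries were above the control, by TPM ratios of 3.20 and 4.06 and log2 changes of 1.41 and 1.72. After removal of the GC trend the changes were 1.04 and 1.23, the former only just past the 2-fold limit.

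CA9 (ENSG00000107159; chromosome 9, 35673856 to 35681159, forward strand) is the carbonic anhydrase on the cell surface that converts exported carbon dioxide to acid and bicarbonate. It was the only gene not picked for its rise that was at least 2-fold higher under both hairpins. Its level was 4.44 TPM in shCON, against 10.2 and 29.5 TPM under shUSP16#1 and shUSP16#2. The libraries were in that order, with TPM ratios of 2.29 and 6.65 and log2 changes of 1.04 and 2.49. The gap between the hairpins was 1.45 on the log2 scale, and 2.27% of tested genes had a gap as large. Under shUSP16#1 the call was borderline, and with the GC trend removed that change was 0.73 and no longer passed, while the change under shUSP16#2 was 1.99. Other carbonic anhydrases did not follow it. CA12, also a surface enzyme and a HIF target, was at 4.0, 3.51 and 3.01 TPM in shCON, shUSP16#1 and shUSP16#2.

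ADM and VEGFA are secreted like ANGPTL4 and are among the best known HIF targets. ADM (ENSG00000148926; chromosome 11, 10304680 to 10307397, forward strand), the precursor of the vasodilator peptide adrenomedullin, was at 106 TPM in shCON, against 45.8 and 55.4 TPM under shUSP16#1 and shUSP16#2. Both hairpin libraries were below the control, 2.31-fold and 1.91-fold by TPM, with log2 changes of -1.19 and -0.92. This placed ADM just past the 2-fold limit under shUSP16#1 and just short of it under shUSP16#2. With the GC trend removed it was past the limit under both, at -1.49 and -1.42. Its relative ADM2 was at 1.65 TPM in shCON, against 4.0 and 4.76 TPM under shUSP16#1 and shUSP16#2, higher by 0.92 and 1.12 on the log2 scale. After removal of the GC trend ADM2 was higher by 0.52 and 0.55. The receptor genes CALCRL, RAMP2 and RAMP3 were listed at 0 in every library.

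VEGFA (ENSG00000112715; chromosome 6, 43770184 to 43786487, forward strand), the main growth factor for vessels, was at 68.4 TPM in shCON, against 97.0 and 59.7 TPM under shUSP16#1 and shUSP16#2. The control lay between the hairpin libraries, with log2 changes of 0.50 and -0.19, or 0.25 and -0.54 with the GC trend removed. VEGFB, a relative that is not known as a HIF target, was at 35.2, 49.4 and 53.9 TPM in the same order, and VEGFC at 33.8, 31.0 and 24.2 TPM. The receptor genes FLT1 and KDR did not exceed 0.03 TPM, and the co-receptor NRP1 was at 82.9, 71.2 and 58.8 TPM.

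BNIP3 and PDK1 act on mitochondria. BNIP3 (ENSG00000176171; chromosome 10, 131966455 to 131982013, reverse strand), a receptor that directs mitochondria to autophagy, was at 73.4 TPM in shCON, against 52.5 and 87.1 TPM under shUSP16#1 and shUSP16#2. The control again lay between the hairpin libraries, with log2 changes of -0.47 and 0.24. The table lists 39 BNIP3 pseudogenes, of which 35 were listed at 0 throughout, and the summed level of all 39 was 1.23, 3.22 and 1.27 TPM. How shared reads were assigned is not known, so the number that BNIP3 shares with them cannot be given. PDK1 (ENSG00000152256; chromosome 2, 172555373 to 172608669, forward strand), the kinase that turns off pyruvate dehydrogenase, was at 15.3 TPM in shCON, against 9.06 and 12.7 TPM under shUSP16#1 and shUSP16#2. Both hairpin libraries were below the control, by -0.69 and -0.25 on the log2 scale, and with the GC trend removed from this GC-poor transcript (41.6%) the changes were -0.29 and 0.35.

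EGLN3 and ANKRD37 complete the group. EGLN3 (ENSG00000129521; chromosome 14, 33924231 to 34462774, reverse strand) encodes a prolyl hydroxylase that HIF induces and that in turn acts as a brake on HIF. It was at 15.7 TPM in shCON, against 5.05 and 5.89 TPM under shUSP16#1 and shUSP16#2. Both hairpin libraries were below the control, 3.12-fold and 2.67-fold by TPM, with log2 changes of -1.47 and -1.28. Itself included, 399 tested genes (2.93%) had a mean change as low or lower. Removal of the GC trend hardly moved these values, to -1.39 and -1.23. ANKRD37 (ENSG00000186352; chromosome 4, 185396021 to 185400628, forward strand), a small ankyrin repeat protein that is often used as a marker of HIF activity, was at 8.56 TPM in shCON, against 8.04 and 7.30 TPM under shUSP16#1 and shUSP16#2. It was the most level of the 10 genes, with log2 changes of -0.08 and -0.20. Fewer cells that express a gene and less of its RNA in each cell cannot be told apart in these bulk libraries.

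**Figure D2:**
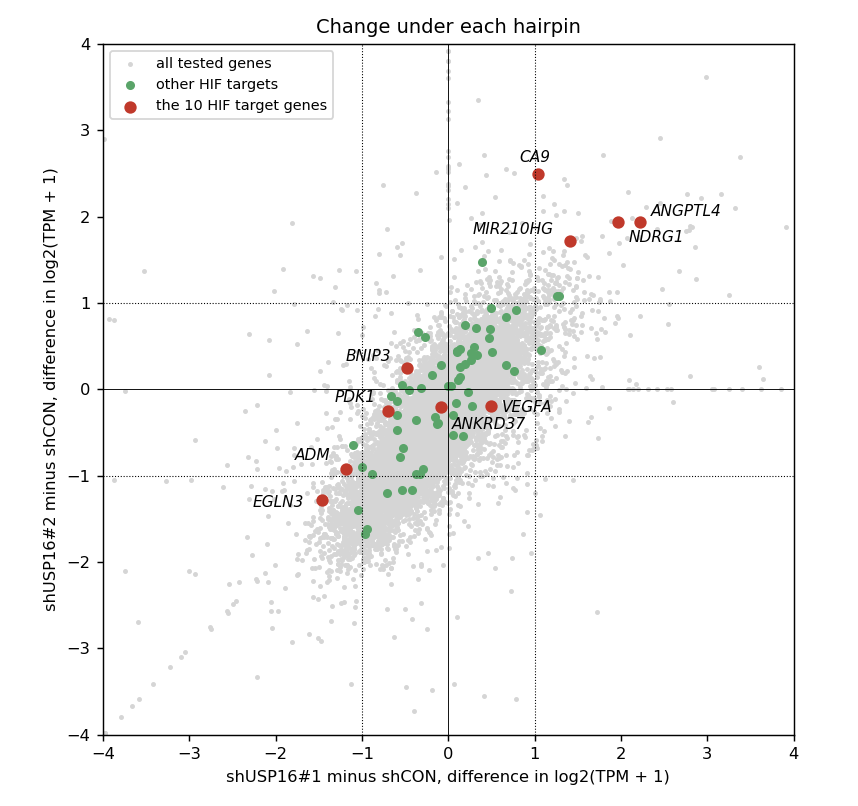
Change of every tested gene under shUSP16#1 (horizontal axis) and shUSP16#2 (vertical axis), as a difference in log2(TPM + 1) from the shared shCON library, with the 10 HIF targets in red, the other HIF targets in green and dotted lines at a 2-fold change. ANGPTL4, NDRG1, MIR210HG and CA9 lie in the upper right corner, EGLN3 in the lower left, and the remaining members lie among the other genes; 100 of the 13637 tested genes lie outside the axes.

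The order of the 10 genes by level changed with these shifts. TPM is a value per length, so levels of different genes can be set side by side. From highest to lowest the order in shCON was NDRG1, ADM, BNIP3, VEGFA, EGLN3, PDK1, ANKRD37, CA9, MIR210HG and ANGPTL4. Under shUSP16#1 it was NDRG1, VEGFA, BNIP3, ADM, CA9, ANGPTL4, MIR210HG, PDK1, ANKRD37 and EGLN3. Under shUSP16#2 it was NDRG1, BNIP3, VEGFA, ADM, CA9, PDK1, MIR210HG, ANGPTL4, ANKRD37 and EGLN3. Neighbours such as EGLN3 and PDK1 in shCON (15.7 and 15.3 TPM), or CA9, ANGPTL4, MIR210HG and PDK1 under shUSP16#1 (9.06 to 10.2 TPM), cannot be ordered, since no spread between replicates is known. The highest level was 95.6 times the lowest in shCON, and 96.1 and 80.7 times under shUSP16#1 and shUSP16#2.

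The 4 genes at least 2-fold higher under both hairpins are so under each alone by construction, and 3 of them were picked for their rise. Neither hairpin alone added a further member to them. Among the 7 genes not picked for their rise, 1 (CA9) was at least 2-fold higher under each hairpin. Under shUSP16#1, 4 of the 10 were at least 2-fold higher and 2 (ADM and EGLN3) at least 2-fold lower, where 2.83% and 5.79% of all tested genes were. Under shUSP16#2, 4 were at least 2-fold higher and 1 (EGLN3) at least 2-fold lower, where 2.8% and 19.5% of all tested genes were. Without regard to size, 4 of the 10 were higher under both hairpins and 4 lower, against 24.5% and 57.2% of tested genes. After centring on the overall median of the tested genes, 6 were higher under both, VEGFA and ANKRD37 being added, and 2 were lower under both (ADM and EGLN3), where the background was 41.7% in each direction. Of the 7 genes not picked for their rise, 3 were higher and 2 lower by this measure. The median change of all 10 was 0.21 under shUSP16#1 and 0.03 under shUSP16#2, a value that includes the 3 picked genes.

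**Figure D3:**
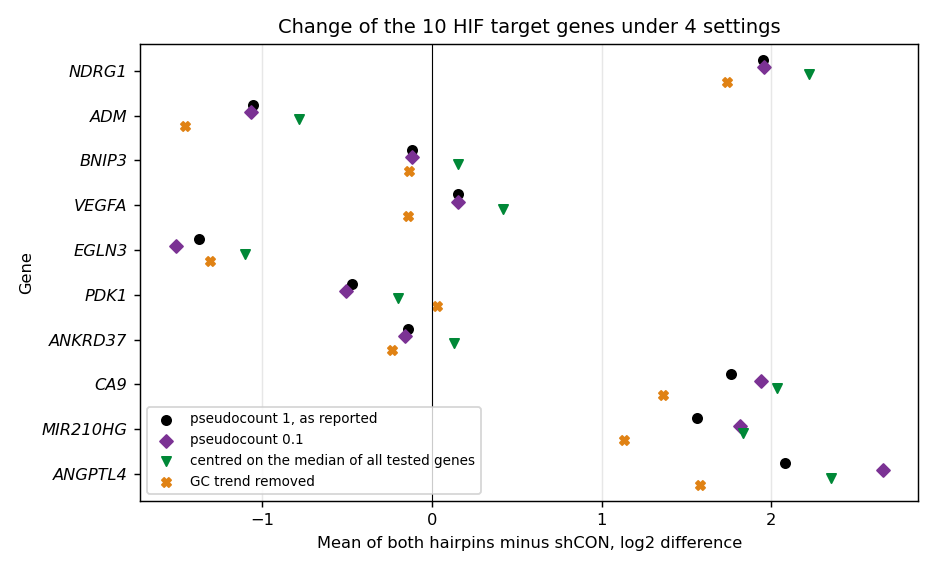
Mean change of each of the 10 genes over both hairpins, as a log2 difference from shCON, with a pseudocount of 1 (as reported) or 0.1, after centring on the overall median, and after removal of the trend with GC content. NDRG1, ANGPTL4, MIR210HG and CA9 stay above 1 and EGLN3 stays below -1 in all 4 settings, ADM ranges from -1.46 to -0.78, and VEGFA, BNIP3, PDK1 and ANKRD37 lie between -0.51 and 0.42, each with points on both sides of 0.

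The genes whose pattern was most like that of the picked genes were sought among the 9301 genes whose mean reached 5 TPM, by the Euclidean distance in the log2 changes under both hairpins. Nearest to NDRG1 were SLC1A6 (distance 0.08), CASP14 (0.22) and OLFM2 (0.24). SLC1A6, a glutamate transporter, was at 3.45 TPM in shCON, against 15.5 and 16.2 TPM under shUSP16#1 and shUSP16#2. Nearest to ANGPTL4 were LXN (0.21), CASP14 (0.24) and NDRG1 itself (0.25). LXN, an inhibitor of carboxypeptidases, was at 14.5, 81.5 and 55.1 TPM in the same order. Nearest to MIR210HG were DHRS3 (0.14), AC005944.1 (0.15) and WFDC3 (0.19). With 2 changes per gene and a shared control, the distance describes these libraries only.

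A longer list of 70 other HIF targets, written from knowledge of the pathway, was described in the same way, and 62 of them were tested. At least 2-fold higher under both hairpins were 2 (3.23%, against 1.14% of all tested genes), EFNA3 and DDIT4, and at least 2-fold lower was 1 (1.61%, against 4.6%), PLOD2. Higher under both without regard to size were 26 (41.9%, against 24.5%), and lower under both were 23 (37.1%, against 57.2%). After centring the counts were 33 (53.2%) and 15 (24.2%), against 41.7% in each direction. The median change was 0.04 under each hairpin, against -0.17 and -0.37 for all tested genes, and after removal of the GC trend it was -0.09 and -0.17, against -0.17 and -0.37. Under shUSP16#1 alone 3 were at least 2-fold higher (4.84%, against 2.83%) and 2 lower (3.23%, against 5.79%). Under shUSP16#2 alone 3 were higher (4.84%, against 2.8%) and 6 lower (9.68%, against 19.5%).

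EFNA3, a ligand of Eph receptors, was at 10.5 TPM in shCON, against 26.9 and 23.3 TPM under shUSP16#1 and shUSP16#2, log2 changes of 1.28 and 1.08. DDIT4, an inhibitor of mTORC1 that is induced by many stresses, was at 41.9, 102 and 89.6 TPM, changes of 1.26 and 1.08. Both were above the control in each hairpin library, and neither passed the limit once the GC trend was removed. Their changes were smaller than those of NDRG1 and ANGPTL4, which were picked for their rise. By the smaller of the changes under the hairpins, the next highest were LOXL2, an enzyme that cross-links collagen, with changes of 0.78 and 0.92, and HILPDA, a lipid droplet protein, with 0.67 and 0.83. With the GC trend removed LOXL2 had changes of 0.47 and 0.46, and HILPDA had 0.73 and 0.91. By the same measure the lowest was PLOD2, a collagen lysyl hydroxylase, at 62.9, 30.01 and 23.2 TPM, changes of -1.04 and -1.40 that shrank to -0.61 and -0.64 after removal of the GC trend. EDN1, the precursor of the vasoconstrictor endothelin, changed by -0.97 and -1.68, the transferrin receptor TFRC by -0.94 and -1.62, and ERO1A, an oxidase of the endoplasmic reticulum, by -0.998 and -0.90. With the GC trend removed EDN1 changed by -0.70 and -1.37, TFRC by -0.53 and -1.03 and ERO1A by -0.63 and -0.31.

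By role, the largest group was that of glucose uptake and use. Of 22 genes listed, 21 were tested, none passed the 2-fold limit under both hairpins, 12 (57.1%) were higher under both and 3 (14.3%; HK2, GYS1 and GBE1) lower under both, against 24.5% and 57.2% of all tested genes, with medians of 0.13 and 0.16. The enolase ENO2 had the highest mean change, at 0.49 and 0.94, and the glycolytic enzymes PFKL and PGK1 had changes of 0.49 and 0.70, and of 0.47 and 0.60. With the GC trend removed, these became 0.09 and 0.13 for PFKL, 0.73 and 1.02 for PGK1, and 0.24 and 0.59 for ENO2. HK2, a hexokinase, had changes of -1.10 and -0.65. After removal of the GC trend the medians of the 21 genes were -0.04 and -0.16, against -0.17 and -0.37 for all tested genes. The other groups were small and stand against the same background of 24.5% higher and 57.2% lower. Of 12 tested genes for secreted and matrix proteins 4 were higher and 5 lower under both hairpins, and of 10 tested genes for feedback, chromatin and transcription 3 were higher and 6 lower. The 6 tested genes for mitochondria, lipid and redox gave 2 and 3, the 10 for stress and other roles gave 5 and 3, and all 3 tested genes for pH, iron and membrane were lower.

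**Figure D4:**
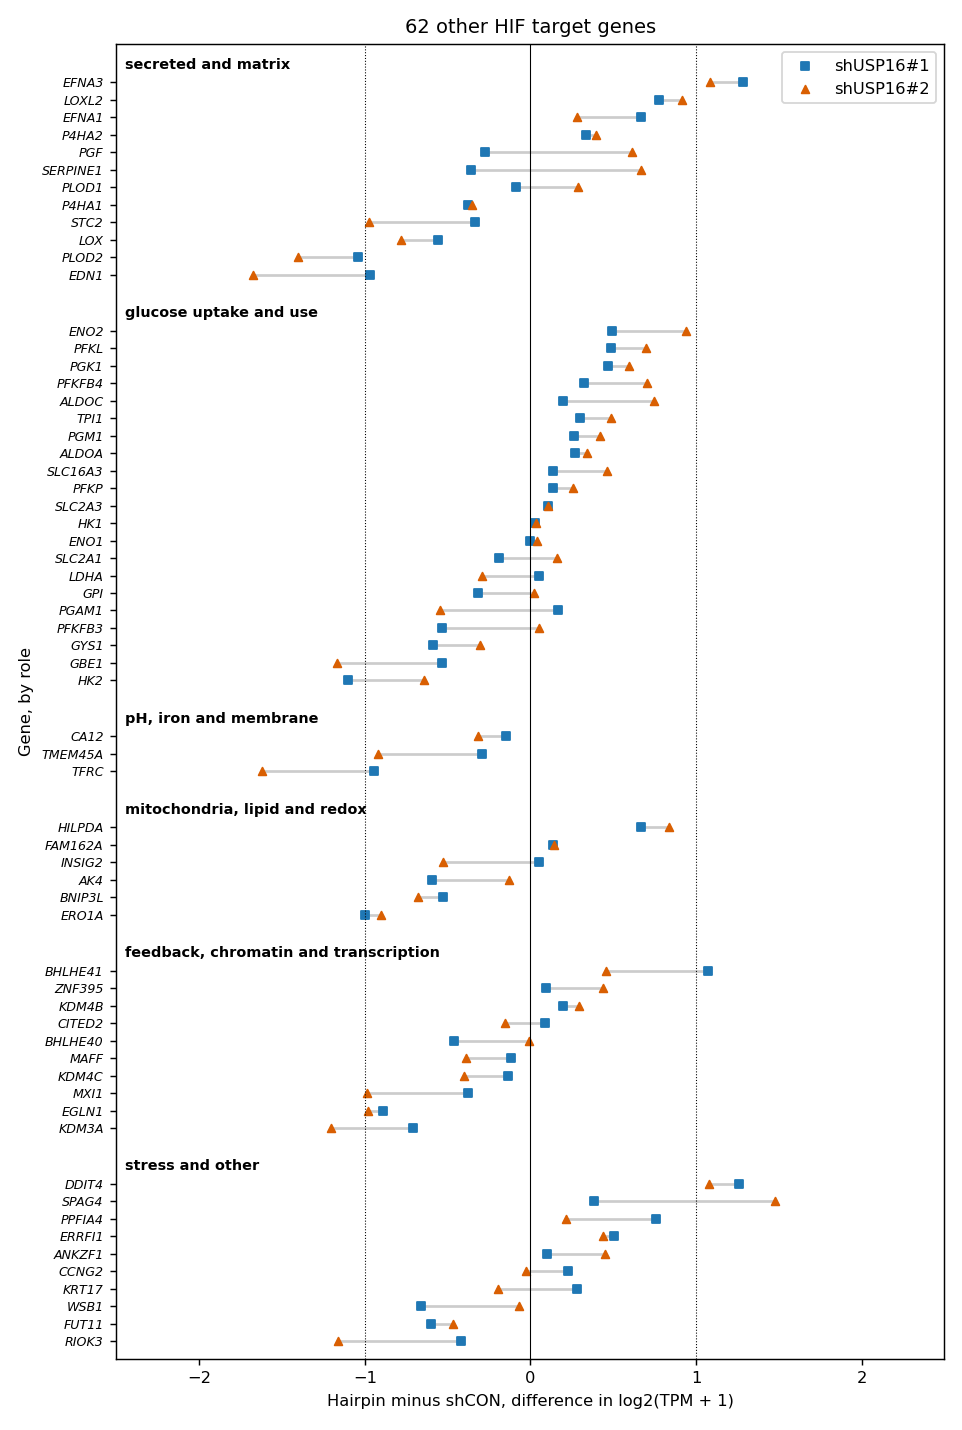
Change of the 62 tested other HIF target genes under shUSP16#1 (squares) and shUSP16#2 (triangles), as a difference in log2(TPM + 1) from shCON, grouped by role and ordered within each role, with dotted lines at a 2-fold change. EFNA3 and DDIT4 have both points past the right line and PLOD2 past the left line, and 12 of the 21 glucose genes have both points above 0.

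The genes that build and control HIF were set beside its targets. Of 16 listed, 14 were tested, none was at least 2-fold higher under both hairpins (1.14% of all tested genes), and EGLN3 and EP300 (14.3%, against 4.6%) were at least 2-fold lower under both. Lower under both without regard to size were 11 (78.6%), against 57.2% of all tested genes, and EGLN2 and ELOB were higher under both, neither of them once the GC trend was removed. After centring on the overall median of the tested genes, 8 of the 14 (57.1%) were lower under both and 5 (35.7%) higher, against 41.7% in each direction.

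HIF1A was at 92.6 TPM in shCON, against 53.9 and 26.1 TPM under shUSP16#1 and shUSP16#2. Both hairpin libraries were below the control and shUSP16#2 was lowest, with log2 changes of -0.77 and -1.79. Its transcript is poor in GC (38.9%), and after removal of the GC trend the changes were -0.30 and -1.04. The antisense genes HIF1A-AS3 (19.6, 11.8 and 4.09 TPM) and HIF1A-AS1 (1.11, 0.59 and 0 TPM) were in the same order, and since the sources used here do not say whether counting used the strand, their reads and those of HIF1A cannot be told apart with certainty. EPAS1, the other alpha subunit, was at 60.2, 49.7 and 35.6 TPM, changes of -0.27 and -0.74. The partner ARNT was at 9.46, 9.40 and 7.94 TPM. HIF3A was listed at 0 throughout and ARNT2 had a mean under 1 TPM.

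Among the hydroxylases, EGLN1, the main oxygen sensor and itself a HIF target, was at 16.8, 8.63 and 8.04 TPM in shCON, shUSP16#1 and shUSP16#2, changes of -0.89 and -0.98 that stayed short of the limit and were -0.56 and -0.54 without the GC trend. EGLN2 was at 32.9, 38.9 and 38.4 TPM, and HIF1AN, the asparaginyl hydroxylase, at 6.38, 5.61 and 6.25 TPM. The changes of EGLN2 were 0.23 and 0.22, and -0.14 and -0.28 without the GC trend, and those of HIF1AN were -0.16 and -0.03, and 0.04 and 0.20 without it, so neither kept its direction.

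In the VHL ligase, VHL was at 31.6, 37.4 and 25.3 TPM, the adaptor ELOB at 296, 383 and 386 TPM, ELOC at 257, 189 and 150 TPM, RBX1 at 59.8, 52.8 and 46.5 TPM and the scaffold CUL2 at 60.9, 32.3 and 24.9 TPM. CUL2 changed by -0.89 and -1.26 and passed the limit under shUSP16#2 only, and without the GC trend it did not pass, at -0.47 and -0.53. The coactivators that HIF recruits were both lower. EP300 was at 12.9, 4.85 and 3.77 TPM, changes of -1.25 and -1.54 that were -1.19 and -1.53 without the GC trend, and CREBBP was at 7.98, 4.4 and 3.70 TPM, changes of -0.73 and -0.93.

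**Figure D5:**
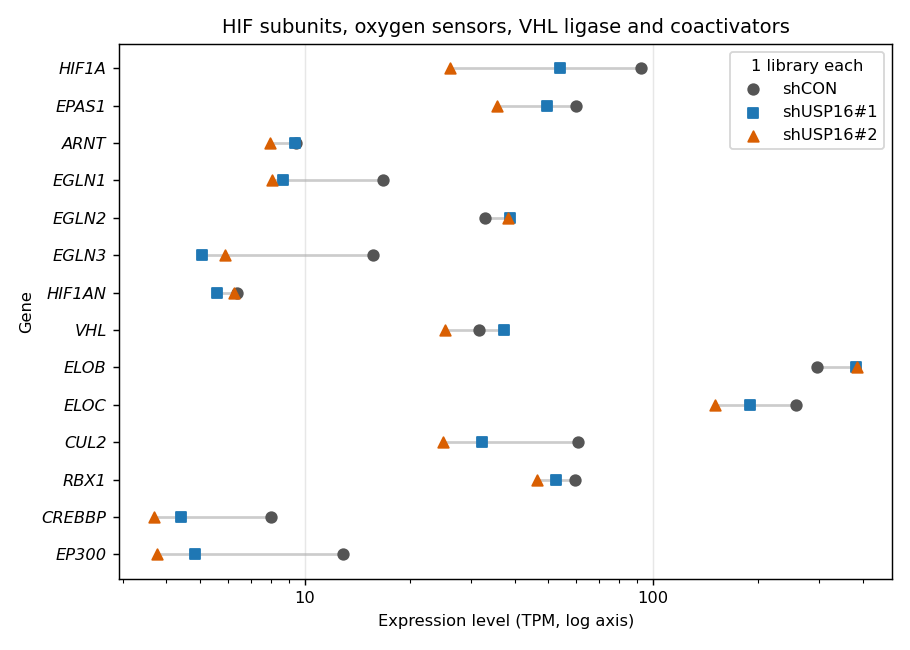
Expression level of the 14 tested genes of the HIF machinery in the 3 libraries, with TPM on a log axis and 1 point per library, in the order subunits, hydroxylases, VHL ligase and coactivators. The shCON point lies furthest right in 11 of the 14 rows, with the widest gaps for HIF1A, EGLN3 and EP300, and the points of ARNT and HIF1AN lie close together.

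Relatives of the member genes were described last. Of 29 listed relatives and partners 16 were tested, and none passed the 2-fold limit under both hairpins in either direction, where 1.14% and 4.6% of tested genes did. The NDRG family gave NDRG2 at 2.56, 2.77 and 5.12 TPM in shCON, shUSP16#1 and shUSP16#2, NDRG3 at 20.3, 23.97 and 20.02 TPM and NDRG4 at 4.31, 5.93 and 4.10 TPM. They were below NDRG1 in level and in change, but NDRG1 was picked for its rise, so this is a description only. All 7 other ANGPTL genes listed had means under 1 TPM, the highest being ANGPTL6 at 0.28, 0.66 and 1.14 TPM. BNIP3L, the mitophagy receptor closest to BNIP3 and a HIF target, was at 22.6, 15.4 and 13.8 TPM, changes of -0.53 and -0.68. PDK2 was at 17.9, 20.3 and 15.8 TPM and PDK3 at 3.63, 3.15 and 4.28 TPM, and PDK4 had a mean under 1 TPM.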

How the data were processed

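RNA-seq was performed on total RNA of PC3 cells with the Illumina TruSeq RNA kit, 1 library each for shCON, shUSP16#1 and shUSP16#2. The authors deposited TPM values with 2 decimals from the Majorbio Cloud Platform. The submitters' processing notes name CASAVA, HISAT2 and the build hg19, without a role, and the quantification tool and annotation are not given in the sources used here. Sequencing depth cannot be read from TPM, so no interval is given for any value. A further 3 columns repeat the TPM columns and were not used.

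Of 60930 rows, 307 without a gene name were entered under their identifier. Where a name recurred the entry with the highest mean was kept, which removed 1211 entries and left 59719 names. Changes were computed as log2(TPM + 1) under each hairpin minus shCON, over the 13637 genes whose mean reached 1 TPM. A difference of at least 1 was a call, with no test. Positions, types and GC content came from GENCODE 29 (GRCh38), to which 57308 names were matched by identifier, and promoter and microRNA sequences from RefSeq (GRCh38.p14). No coordinate of the files was used. Printed promoter pieces leave out GENCODE untranslated regions except for 30 bases around the matches of CA9 and ANKRD37. The trend with GC content was removed by subtracting the median of each of 50 GC bins, and the overall median was then restored.

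The members and all lists were chosen with earlier results of these data known. Named were all members, the tested HIF machinery, tested relatives, and of the other targets those past 2-fold under both hairpins plus the 4 highest and 4 lowest by the smaller change. HK2, ENO2, PFKL, PGK1, GYS1, GBE1, ANGPTL6, the receptor genes at 0 and the antisense genes were named after their values were seen. Alternatives were centring on the overall median, 0.1 as the pseudocount, 5 TPM or nothing as the minimum, either hairpin by itself, removal of the GC trend, and TPM rescaled over protein-coding genes. The scripts were tested on simulated data. The tools were matplotlib 3.10.9, scipy 1.17.1, pandas 2.3.3, numpy 2.4.6 and Python 3.11.15.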

Additional observations from a re-analysis of the deposited data

Results flagged for a closer look

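For 9 genes of the members, the HIF machinery and the relatives, the change had opposite signs under the hairpins, with 1 library each, so the difference between them was not tested. The values are the log2 change under shUSP16#2 minus that under shUSP16#1. Among the members it was -0.69 for VEGFA and 0.72 for BNIP3. In the VHL ligase it was -0.55 for VHL. Among the relatives it was -0.25 for NDRG3, -0.44 for NDRG4, 0.88 for PGF, -0.24 for CA2, -0.34 for PDK2 and 0.35 for PDK3. The level of PGF was low, at 1.03, 0.68 and 2.10 TPM in shCON, shUSP16#1 and shUSP16#2.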

How the results depend on the processing

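No paired analysis was possible because the groups hold single libraries. The count of members at least 2-fold higher under both hairpins was 4 in every setting except removal of the GC trend, where it was 3, CA9 being lost. This count includes the 3 picked genes, and either hairpin alone cannot lower it by construction. Mean changes of single members were compared over 4 settings (pseudocount, centring, GC trend and protein-coding genes), 40 values in all. Centring shifts every gene by the same amount. For 24 of the 40 the shift was within the SD of that gene's values under the hairpins. This SD was 0.02 for NDRG1 and 1.03 for CA9, so the count reflects agreement between the hairpins and does not measure stability. Of the 40, 36 kept their sign. The exceptions in sign were BNIP3 and ANKRD37 after centring, and VEGFA and PDK1 with the GC trend removed. The median of the 10 members was 0.02 as reported, 0.29 after centring and 0.21 under shUSP16#1 alone. Of the other HIF targets, 1 was at least 2-fold lower as reported, 2 with a pseudocount of 0.1, under shUSP16#1 alone or with protein-coding genes rescaled, 6 under shUSP16#2 alone, and 0 after centring or removal of the GC trend. At least 2-fold higher were 2 as reported and 0 with the GC trend removed. Their median was 0.0244 as reported, 0.294 after centring, 0.0286 with no minimum, -0.0149 with a minimum of 5 TPM, 0.0388 and 0.036 under shUSP16#1 and shUSP16#2 alone, -0.0728 with the GC trend removed and 0.0472 with protein-coding genes rescaled. The background of tested genes differs by setting. As reported, 155 (1.14%) of 13637 were at least 2-fold higher and 627 (4.6%) lower. These became 287 (2.1%) and 1095 (8.03%) with a pseudocount of 0.1, and 341 (2.5%) and 273 (2%) after centring. Under shUSP16#1 alone they were 386 (2.83%) and 789 (5.79%), and under shUSP16#2 alone 382 (2.8%) and 2659 (19.5%). A minimum of 5 TPM gave 96 (1.03%) and 444 (4.77%) of 9301, and no minimum 164 (0.275%) and 709 (1.19%) of 59719. Removal of the GC trend gave 98 (0.737%) and 261 (1.96%) of 13296. Rescaling over protein-coding genes gave 90 (0.776%) and 603 (5.2%) of 11591. Apart from what each setting does by construction, the cause was not tested. Depth is unknown, so the precision of low values such as ANGPTL4 in shCON cannot be given.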
